A study of Mus musculus with 4 samples.

Results

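Immunoglobulin heavy and light chain genes encode the polypeptides of antibodies, and 56 of the 45037 probe sets measured on the array named them. The probe sets were chosen by their annotated gene symbol, which had to start with Igh, Igk or Igl and name an immunoglobulin locus or gene segment. Ighmbp2, Igll1 and Iglon5 were left out. The probe sets fell into 18 for heavy chain constant genes, 1 for a heavy chain variable gene, 4 that listed both kinds of heavy chain gene, 29 for the kappa light chain and 4 for the lambda light chain. RNA came from 2 lung samples labelled IKKa floxed and 2 labelled wild type, all from mice of the strain given as B6/J, with 1 Affymetrix array per sample. Mice of both genotypes had been given, through the trachea, an adenovirus encoding Cre, a recombinase that removes DNA lying between loxP sites, and their lungs were taken 4 months later. IKKa (IKKα) is a kinase that activates NF-κB transcription factors, and the comparison asks how lungs with its floxed allele differed after Cre. The labels give neither age nor sex, nor whether both alleles were floxed, nor which lung cells the virus reached. Nor do they say whether the lungs of a genotype are from different mice, so every p-value rests on the spread among these arrays alone, part of which may be technical.

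An antibody joins 2 kinds of chain, heavy and light, and each chain ends in a constant region behind a variable region that binds antigen. Each B cell assembles its variable regions from gene segments, and its daughter cells keep that choice, so the variable segments in a tissue depend on which clones are present. The heavy chain constant gene sets the isotype. Ighm gives IgM, the first isotype a B cell makes, and Igha gives IgA, the isotype secreted across mucosal surfaces such as the airways. Ighg3 gives IgG3, and Igkc and Iglc1 are constant genes of the kappa and lambda light chains. Plasma cells, the end stage of the B cell lineage, carry far more immunoglobulin RNA than resting B cells do. In whole lung RNA, fewer cells of a type and less RNA per cell cannot be told apart.

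In the table of probe sets, Ighm and Ighg3 were named alone by 11 and 4 sets and Igha by 3. By their order on mouse chromosome 12 (RefSeq, GRCm38.p6), Ighm lies nearest to the variable segments and Igha farthest away. No probe set named Ighd, Ighg1, Ighg2b, Ighg2c or Ighe alone, so those isotypes are not analysed here. The kappa genes lie on chromosome 6 and the lambda genes on chromosome 16. Of the 56 probe sets, 13 listed several symbols and are not given a single gene name. The ending of a probe set's name states how specific it is. In 17 the ending is _x_at, which marks probes that can also bind other transcripts, and _s_at marks probes shared by related transcripts. Immunoglobulin segments are near copies of each other, so the segment behind each value is uncertain.

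The deposited intensities had the same trimmed mean on all arrays and were alike in median intensity (32.2 and 32.1 in IKKa floxed, 33.8 and 34.3 in wild type lungs). Lung markers were high in all 4, with the surfactant gene Sftpc at 13619 and 10831 in IKKa floxed and at 9204 and 8743 in wild type lungs. The genotypes also differed in the pattern of sex-linked genes. Xist, which female cells transcribe, had intensities of 4246 and 4629 in IKKa floxed and 31.8 and 22.9 in wild type lungs. Y-linked Eif2s3y had 3.77 and 6.14 in IKKa floxed against 519 and 530 in wild type lungs. Genotype and sex pattern cannot be told apart in any result below. The 3′ to 5′ ratio of the Gapdh control probe sets, which reads RNA integrity, was 1.44 and 1.68 in IKKa floxed lungs. It was 1.18 and 1.10 in wild type lungs. The same ratio for beta-actin lay closer, at 2.67 and 2.77 in IKKa floxed and 2.65 and 2.46 in wild type lungs. The summed intensity of 10 cardiac muscle genes was 649 and 509 in IKKa floxed lungs, against 4847 and 7130 in wild type lungs. That of 6 adipose genes was 257 and 263 in IKKa floxed against 1413 and 1089 in wild type lungs, so the pieces of tissue also differed in these markers. The part of sex, RNA integrity and neighbouring tissue in the immunoglobulin values was not tested.

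Immunoglobulin signal was higher in the IKKa floxed lungs for the IgA heavy chain and for 4 probe sets of the kappa light chain. Of the 11 probe sets named Ighm, 1 was called higher. Of the 56 probe sets, 33 reached the minimum mean intensity of 12.7 and were tested, and 23 were too dim. By limma with Benjamini-Hochberg adjustment over 31526 probe sets (threshold 0.05), 8 rose and 0 fell in IKKa floxed lungs. By name ending, 5 of the 14 tested _x_at sets, 3 of 5 _a_at, 0 of 4 _s_at and 0 of 10 plain _at sets rose. The plain _at sets were dimmer, and none exceeded an intensity of 183 in any lung. In the whole table, 0.295% of the probe sets tested rose and 0.251% fell, 0.546% in all. At an unadjusted p under 0.05, where 10.8% of the table passed, 19 immunoglobulin probe sets were higher and 0 were lower. Of the 33 tested, 6 had a wild type mean under the filter and were tested only through their IKKa floxed values. These 6 include 5 of the 19 and 0 of the 8, so the count of 19 is a description. Over all 56, dim ones included, 51 had a positive log2 fold change (46.8% of the whole table did), and the median was 0.69, against -0.017 for the whole table. The genotypes did not overlap, with both IKKa floxed lungs above both wild type lungs, for 31 of the 56 (18.2% of the table). They did not overlap in the opposite direction for 0 of the 56 (21.7% of the table). Many of these levels were low, and 31 of the 56 stayed under an intensity of 50 in every lung. With a pseudocount of 1 in place of 16, 0 of the 8 calls held. With no filter on dim probe sets 5 held, and 5 also held with a trended, robust variance prior. With 1 array left out, 1 genotype keeps only 1 array. A p-value from such a fit rests on the spread of the other genotype's pair alone. It holds no spread for the genotype with 1 array, so a call gained or lost that way is only a description.

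The IgA heavy chain was higher in both IKKa floxed lungs by every probe set that named it. Probe set 1421653_a_at for Igha gave intensities of 10105 and 7956 in IKKa floxed lungs and 815 and 594 in wild type lungs. Probe set 1425763_x_at gave 8903 and 6603 in IKKa floxed lungs and 613 and 454 in wild type lungs. Probe set 1429381_x_at gave 5275 and 4022 in IKKa floxed lungs and 402 and 328 in wild type lungs. In all 3 the genotypes stayed far apart, and within each genotype replicate 1 was the higher lung. With the first of them the IKKa floxed lungs averaged 9030 ± 1520 and the wild type lungs 704 ± 156 (SD, n = 2 each). Its log2 fold change was 3.66 ± 0.21 SE, with a limma adjusted p of 0.00181. The other two gave log2 fold changes of 3.82 ± 0.22 SE (limma adjusted p = 0.00181) and 3.61 ± 0.19 SE (limma adjusted p = 0.00133), so the folds were 12.2 to 14.1. Whichever array was left out, the log2 fold changes of the 3 sets stayed between 3.41 and 4.04. With a pseudocount of 1 the 3 Igha sets had limma adjusted p of 0.0713 to 0.0771.

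The 11 probe sets named Ighm did not move together. Their log2 fold changes ran from -0.86 to 6.29, with 1 that rose, 8 that did not pass and 2 too dim to test. They are described in the following groups, formed after their values were seen. Probe sequences were not used. It therefore cannot be told which of these sets bind the constant region of IgM and which a rearranged variable region. Probe set 1425385_a_at had intensities of 6948 and 8926 in IKKa floxed lungs and 25.4 and 230 in wild type lungs. Both IKKa floxed lungs were near each other, and the wild type lungs differed 9.07-fold. The log2 fold change was 6.29 ± 0.73 SE (limma adjusted p = 0.0255), the largest of the 56, a 78.2-fold difference. The fold depended on the wild type array used, at 32.0 without wild type replicate 1 and 191 without wild type replicate 2. Its call was lost without IKKa floxed replicate 1 (limma adjusted p = 0.0887), without IKKa floxed replicate 2 (0.0824), with no filter on dim probe sets (0.114), with a pseudocount of 1 (0.263) and with a trended, robust variance prior (0.347).

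A second group of Ighm probe sets was high in IKKa floxed lung 1 only. Probe set 1427870_x_at gave 2616 and 115 in IKKa floxed lungs and 51.1 and 329 in wild type lungs. Probe set 1425247_a_at gave 1952 and 68.9 in IKKa floxed lungs and 27.7 and 170 in wild type lungs. With these sets IKKa floxed lung 2 lay below wild type lung 2, so the genotypes overlapped. Probe set 1427756_x_at gave 856 and 25.8 in IKKa floxed lungs and 3.59 and 90.0 in wild type lungs. Probe set 1425324_x_at repeated the order, with 790 and 24.7 in IKKa floxed lungs and 7.31 and 79.7 in wild type lungs. Their log2 fold changes of 1.94 to 2.18 had SEs of 1.33 to 1.40 and did not pass (limma adjusted p = 0.626 to 0.655). Without IKKa floxed replicate 1 all 4 turned slightly negative, to between -0.22 and -0.085, so that 1 lung sets their direction. The dim probe set 1427869_at, which was not tested, also had its top value there, with 39.6 and 1.88 in IKKa floxed lungs and 1.12 and 0.809 in wild type lungs.

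The third group of Ighm probe sets was highest in wild type lung 2. Probe set 1427351_s_at gave 553 and 415 in IKKa floxed lungs and 457 and 1699 in wild type lungs. Probe set 1427329_a_at gave 245 and 204 in IKKa floxed lungs and 212 and 530 in wild type lungs. Wild type lung 1 lay between the IKKa floxed lungs in both, and neither passed the test (log2 fold changes -0.86 ± 0.54 SE and -0.56 ± 0.38 SE, limma adjusted p = 0.621 and 0.649). Without wild type replicate 1 the log2 fold change of the first was -1.79, and without wild type replicate 2 it was 0.065. Of the remaining Ighm probe sets, 2 were tested and neither passed. Probe set 1452535_at gave 84.4 and 46.0 in IKKa floxed and 26.6 and 43.8 in wild type lungs (0.64 ± 0.27 SE, limma adjusted p = 0.469). Probe set 1426196_at gave 14.7 and 23.2 in IKKa floxed and 20.4 and 16.04 in wild type lungs (0.023 ± 0.18 SE, limma adjusted p = 0.975). Probe set 1451949_at, not tested, gave 10.4 and 11.3 in IKKa floxed and 1.49 and 3.39 in wild type lungs.

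Ighg3, the constant gene of IgG3, had 4 probe sets, all near the low end of the scale. The brightest, 1427503_at, gave 38.1 and 52.9 in IKKa floxed and 30.3 and 38.8 in wild type lungs, which overlapped (log2 fold change 0.28 ± 0.18 SE, limma adjusted p = 0.629). Probe set 1447998_at, not tested, gave 5.66 and 18.6 in IKKa floxed and 5.18 and 7.76 in wild type lungs. The other two, 1426199_x_at and 1426198_at, stayed under an intensity of 1 in every lung, so no level of IgG3 can be read from them.

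The 1 probe set for a heavy chain variable gene alone, 1455530_at for Ighv14-2, gave 74.3 and 65.2 in IKKa floxed and 65.6 and 83.1 in wild type lungs. The genotypes overlapped, and the log2 fold change was -0.070 ± 0.16 SE (limma adjusted p = 0.908). Of the 4 probe sets that listed heavy variable and constant genes together, 1427758_x_at gave 31.5 and 16.4 in IKKa floxed and 7.53 and 3.65 in wild type lungs (0.87 ± 0.22 SE, limma adjusted p = 0.241). Probe set 1427851_x_at gave 32.2 and 27.7 in IKKa floxed and 10.7 and 11.9 in wild type lungs (0.75 ± 0.14 SE, limma adjusted p = 0.126). In both the IKKa floxed lungs were above the wild type lungs, but the levels were low and neither passed. The wild type means of both (5.59 and 11.3) lay under the filter, so these sets were tested only through their IKKa floxed values. The other two were too dim to test, with log2 fold changes of 0.36 for 1452538_at and 0.29 for 1451947_at.

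Kappa light chain signal was higher in the IKKa floxed lungs by some of its probe sets, bright ones among them. Of 29 kappa probe sets 14 were tested and 15 were too dim. Of the 14, 4 rose and 0 fell (0.295% and 0.251% of the probe sets tested in the whole table). Probe set 1452463_x_at, named for the variable segment Igkv8-30, gave 4941 and 6677 in IKKa floxed lungs and 130 and 296 in wild type lungs. The difference was 27.0-fold (log2 fold change 4.76 ± 0.35 SE, limma adjusted p = 0.00636), and the call was lost with a trended, robust variance prior (0.0750). The 3 probe sets that list the constant gene Igkc beside Igkj1 and 3 variable segments were bright in every lung. Among them 1427455_x_at gave 9142 and 7386 in IKKa floxed lungs and 540 and 1237 in wild type lungs (3.30 ± 0.36 SE, limma adjusted p = 0.0226). Without IKKa floxed replicate 1 or 2 that call was lost (limma adjusted p = 0.0865 and 0.0564). It was lost as well when dim probe sets were kept (0.0983) and with a trended, robust variance prior (0.194). Its fold was 6.57 without wild type replicate 1 and 14.8 without wild type replicate 2.

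The other two sets that list Igkc also had both IKKa floxed lungs above both wild type lungs, with smaller folds. Probe set 1427660_x_at gave 7574 and 6908 in IKKa floxed and 1815 and 3313 in wild type lungs (1.55 ± 0.28 SE, limma adjusted p = 0.108). Probe set 1452417_x_at gave 5482 and 5791 in IKKa floxed and 1378 and 2605 in wild type lungs (1.56 ± 0.29 SE, limma adjusted p = 0.116). Neither passed the test, and within wild type, lung 2 was the higher one in all 3. Without wild type replicate 2 the log2 fold changes of 1427660_x_at and 1452417_x_at were 1.99 and 2.02. Without wild type replicate 1 they were 1.12 and 1.11. Sets with the same symbols thus ranged from 2.94-fold to 9.87-fold.

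The symbol Igk, which stands for the whole kappa locus, was carried by 4 probe sets. Probe set 1452557_a_at gave 318 and 261 in IKKa floxed and 38.6 and 51.5 in wild type lungs (2.33 ± 0.18 SE, limma adjusted p = 0.00661). Probe set 1425738_at gave 133 and 137 in IKKa floxed lungs, which were nearly equal, and 4.36 and 51.8 in wild type lungs, which were not (2.02 ± 0.50 SE, limma adjusted p = 0.238). Without wild type replicate 2 its log2 fold change was 2.89, and without wild type replicate 1 it was 1.16. The other two were dim and not tested. Probe set 1427757_at stood at 36.5 in IKKa floxed lung 1 and at no more than 2.40 in the other lungs.

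Single kappa variable segments were mostly dim, and few passed the test. Of the 29 kappa probe sets, 28 had a positive log2 fold change (46.8% of the whole table did). Both IKKa floxed lungs were above both wild type lungs in 18 (18.2% of the table). Many of these were dim, and 20 of the 29 stayed under an intensity of 50 in every lung. Igkv9-120 rose by 1 of its 3 probe sets, 1460423_x_at, which gave 279 and 132 in IKKa floxed and 9.72 and 21.7 in wild type lungs (2.75 ± 0.34 SE, limma adjusted p = 0.0317, and 0.0511 without IKKa floxed replicate 1). Its other tested probe set, 1452536_s_at, gave 45.8 and 22.6 in IKKa floxed and 20.5 and 27.7 in wild type lungs, which overlapped (0.29 ± 0.24 SE, limma adjusted p = 0.714, and -0.049 without IKKa floxed replicate 1). Igkv6-14, by probe set 1427860_at, was high in IKKa floxed lung 1 only, with 183 and 14.6 in IKKa floxed and 11.9 and 19.7 in wild type lungs (1.30 ± 0.77 SE, limma adjusted p = 0.596). Without IKKa floxed replicate 2 the log2 fold change was 2.65, and without IKKa floxed replicate 1 it turned to -0.046, so 1 lung sets its direction. Igkv14-111, by probe set 1451951_at, gave 33.1 and 37.1 in IKKa floxed and 13.4 and 2.93 in wild type lungs (1.11 ± 0.22 SE, limma adjusted p = 0.149). Its log2 fold change was 1.43 without wild type replicate 1 and 0.79 without wild type replicate 2. Its wild type mean of 8.17 lay under the filter, so it was tested only through its IKKa floxed values. The 3 probe sets that list Igkv6-14, Igkv6-23 and Igkv8-19 together were tested and not called. Of these, 1427576_at gave 23.3 and 38.9 in IKKa floxed and 1.54 and 7.03 in wild type lungs (1.21 ± 0.22 SE, limma adjusted p = 0.112). The genotypes were also apart with 1427577_x_at, at 29.3 and 34.9 in IKKa floxed and 12.4 and 3.35 in wild type lungs (1.03 ± 0.21 SE, limma adjusted p = 0.151). Both 1427576_at and 1427577_x_at had wild type means under the filter (4.29 and 7.90) and were tested only through their IKKa floxed values. The genotypes overlapped with 1451965_at, at 87.2 and 20.4 in IKKa floxed and 7.51 and 63.6 in wild type lungs (0.50 ± 0.66 SE, limma adjusted p = 0.825), and the sign turned without wild type replicate 1 or IKKa floxed replicate 1. The 15 kappa sets that were not tested reached at most 37.95 in any lung. That value was for Igkv6-15, by 1427859_at, in IKKa floxed lung 1, against 3.22 in IKKa floxed lung 2 and 1.72 and 0.409 in wild type lungs. The lowest kappa log2 fold change was -0.22, for the dim Igkv1-117 set, with 0.257 and 8.24 in IKKa floxed and 9.87 and 4.72 in wild type lungs.

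For 3 of 4 lambda light chain probe sets both IKKa floxed lungs lay above both wild type lungs (18.2% of the whole table did). Of these sets 0 passed, and the IKKa floxed lungs lay far from each other. At an unadjusted p under 0.05, where 10.8% of the table passed, all 3 tested were higher. Probe set 1430523_s_at for Iglv1, a lambda variable gene, gave 562 and 1967 in IKKa floxed and 55.6 and 219 in wild type lungs (3.04 ± 0.70 SE, limma adjusted p = 0.194). Without wild type replicate 2 its log2 fold change was 3.90, and with each array left out in turn it ran from 2.15 to 3.93. Probe set 1424931_s_at, which lists Iglc1 and Iglv1, gave 207 and 2344 in IKKa floxed and 24.6 and 140 in wild type lungs (3.19 ± 1.10 SE, limma adjusted p = 0.384). In both sets lung 2 was the higher of its genotype, by 3.50-fold and 11.3-fold among the IKKa floxed lungs. Probe set 1447918_x_at, also Iglv1, had the opposite order there, with 700 and 190 in IKKa floxed and 58.6 and 94.1 in wild type lungs (2.08 ± 0.54 SE, limma adjusted p = 0.259). Without IKKa floxed replicate 2 its log2 fold change was 2.98, and without IKKa floxed replicate 1 it was 1.18. The fourth, 1427292_at, was too dim to test, with 2.01 and 17.9 in IKKa floxed and 14.7 and 4.99 in wild type lungs.

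Immunoglobulin probe sets also set lungs of the same genotype apart, a measure that does not use the contrast between genotypes. Among 31526 probe sets, the 5 largest differences between the IKKa floxed lungs were all immunoglobulin. They were the 4 Ighm sets high in lung 1, with log2 differences of 4.31 to 4.53, and the set that lists Iglc1 and Iglv1, at 3.41 in favour of lung 2. In all, 9 of the 33 tested immunoglobulin sets differed over 2-fold between these lungs (27.3%), against 0.958% of the table. Of the 9, lung 1 was higher in 7 and lung 2 in 2, both lambda. Between the wild type lungs 13 of 33 differed over 2-fold (39.4%), against 0.584% of the table, and lung 2 was higher in all 13. Of the 184 probe sets that differed so in the whole table, lung 2 was higher in 94. Sets named Ighm alone made up 4 of the 9 and 7 of the 13, and lambda sets 3 and 2. Sets that read the same or similar transcripts are not independent, so these shares are a description. The second to seventh largest differences between wild type lungs were Ighm sets and the set that lists Iglc1 and Iglv1, led by 1425385_a_at at 2.57. The 3 Igha sets differed by at most 0.44 in either pair and had wild type lung 1 above lung 2. The heavy and light chain sets thus did not rank the lungs of a genotype in 1 common order.

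Genes that act with immunoglobulins were read from the same fit, each by its brightest probe set. For comparison with each list, 0.295% of the probe sets tested in the whole table rose and 0.251% fell. At an unadjusted p under 0.05, 10.8% of the table passed. Of 21 tested genes of plasma cells and antibody secretion, 2 rose and 0 fell (7 and 0 at an unadjusted p under 0.05), with a median of 0.21. Jchain, whose product links IgA and IgM into polymers, gave 6470 and 6874 in IKKa floxed and 324 and 673 in wild type lungs (3.79 ± 0.31 SE, limma adjusted p = 0.00820). The IKKa floxed lungs were nearly equal in Jchain, and its log2 fold change stayed between 3.28 and 4.30 whichever array was left out. Its call missed the threshold with no filter on dim probe sets (limma adjusted p = 0.0502) or a pseudocount of 1 (0.153). Mzb1, a chaperone that helps assemble antibodies, gave 391 and 288 in IKKa floxed and 89.8 and 109 in wild type lungs (1.61 ± 0.19 SE, limma adjusted p = 0.0267). Its call was lost with a replicate block (limma adjusted p = 0.0756), at a pseudocount of 1 (0.202) and when dim probe sets were kept (0.105). Without IKKa floxed replicate 1 its log2 fold change was 1.40. Of the members that did not pass, Tnfrsf17, the survival receptor BCMA of plasma cells, had the highest value (1.14 ± 0.31 SE, limma adjusted p = 0.271) and Sdc1, a surface proteoglycan of plasma cells and epithelium, the lowest (-0.19 ± 0.18 SE, limma adjusted p = 0.738).

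Genes of B cells before the plasma cell stage gave no call. Of 19 tested, 0 rose and 0 fell by limma (3 and 1 at an unadjusted p under 0.05), the median was -0.022, and their summed intensity was 2532 and 1916 in IKKa floxed and 1826 and 1838 in wild type lungs. Their log2 fold changes ran from -0.49 for Blk, a B cell kinase (limma adjusted p = 0.290), to 0.98 for Ly86, which macrophages also express (0.153). Of the sums, Ly86 alone made up 841 and 593 in IKKa floxed and 377 and 327 in wild type lungs. The 3 genes higher at an unadjusted p under 0.05 were Ly86, Blnk and Btk, and the 1 lower was Blk. Both a trended, robust variance prior and a pseudocount of 64 gave 2 higher calls among the 19. In the list of germinal centre, class switching and recombination genes, 13 were tested and 0 rose or fell (1 and 0 at an unadjusted p under 0.05), and the median over the 19 on the array was -0.036. The highest there was Mki67, a marker of cycling cells of any type (0.98 ± 0.16 SE, limma adjusted p = 0.0850).

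Transport and Fc receptor genes gave 1 call among 9 tested (4 at an unadjusted p under 0.05 were above and 0 below, and the median over the 11 on the array was 0.021). Fcgr4, an activating receptor for IgG, gave 259 and 185 in IKKa floxed and 75.5 and 74.5 in wild type lungs (1.37 ± 0.19 SE, limma adjusted p = 0.0428). That call was lost with a replicate block (limma adjusted p = 0.0765), when dim probe sets were kept (0.146) and at a pseudocount of 1 (0.222). The log2 fold change of Fcgr4 was 1.14 without IKKa floxed replicate 1 and 1.36 without wild type replicate 2. Pigr, the receptor that carries polymeric IgA across epithelium, overlapped between the genotypes, with 381 and 299 in IKKa floxed and 330 and 385 in wild type lungs (-0.074 ± 0.17 SE, limma adjusted p = 0.910). Fcgrt, the neonatal Fc receptor, and Fcmr, a receptor for IgM, stood at -0.025 ± 0.15 SE and -0.26 ± 0.21 SE (limma adjusted p = 0.969 and 0.700).

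Markers of other cells moved in part on the same arrays. Of 12 T cell genes tested 0 passed by limma. At an unadjusted p under 0.05, where 10.8% of the table passed, 9 of the 12 were higher. The T cell median was 0.84, with summed intensities of 1250 and 1058 in IKKa floxed and 611 and 637 in wild type lungs. Stromal and other genes of lymphoid tissue had a median of 0.012 over 8 genes, and 0 of 5 tested passed (2 above and 1 below at an unadjusted p under 0.05). Their sums were 642 and 500 in IKKa floxed and 390 and 486 in wild type lungs. Cardiac muscle genes were lower in 7 of 10 and adipose genes in 3 of 5 tested (0.251% of the table fell). Of the 2 erythroid genes tested 0 passed (0 at an unadjusted p under 0.05). The part of these cells in the immunoglobulin values was not tested.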

How the data were processed

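The deposited table held 1 linear intensity per probe set and array, made by the authors with Affymetrix Expression Console, per the submitters' processing notes. Its version was not given in the sources used here, nor was the algorithm. The mean over probe sets, after trimming 2% at either end, was 150.001 on all 4 arrays. Of 45101 rows, 64 array controls were left out. Probe sets took their symbols from the platform annotation (34945 with 1 symbol, 932 with several, 9160 with none), and 0 symbols changed through Entrez numbers. The transcript of the targeted gene is not analysed here.

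Intensities were transformed as log2(intensity + 16), so folds are on that scale and understate changes of low probe sets. Array medians differed by at most 0.0698 (log2), and the deposited scaling was kept. Probe sets below the 30th percentile of mean intensity (12.7) were left out. The other 31526 were tested in R 4.3.3 by limma 3.58.1 (functions lmFit and eBayes, no trend, not robust, two-sided, Benjamini-Hochberg, threshold 0.05), with 2 residual and 4.50 prior degrees of freedom. An exact permutation test of 2 against 2 cannot go below p = 0.333, so none is given. In 10 simulated runs of this comparison, 200 of 31526 probe sets were changed. The runs recovered 0.6% of 1.5-fold, 12.6% of 2-fold, 94.2% of 4-fold and 98.2% of 8-fold changes, and 5.34% of calls were false. These rates are for the whole table and need not hold for the immunoglobulin sets, which varied more within a genotype. Of those tested, 27.3% differed over 2-fold between the IKKa floxed lungs, against 0.958% of the table. Between the wild type lungs the shares were 39.4% and 0.584%. The number of arrays limits the precision.

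Members and gene lists were chosen with earlier results of these data known. Named were all constant gene probe sets, all others that passed, the 3 brightest and the lowest per class, Jchain, Pigr, Fcgrt and Fcmr, and list members that passed, or otherwise the extremes of a list. Other probe sets named were chosen after their values were seen. Alternatives covered the pseudocount, filter, normalization, variance prior, each array left out, a replicate block and the choice of probe sets.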

Additional observations from a re-analysis of the deposited data

How the results depend on the processing

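The 8 higher immunoglobulin calls became 0 with a pseudocount of 1, 5 with no filter and 5 with 1 probe set per symbol. They ran from 5 to 13 with 1 array left out, when the lower calls ran from 0 to 1. The median log2 fold change of heavy constant sets, 0.77, became 1.95 with a pseudocount of 1 and 3.66 with 1 probe set per symbol, and ran from 0.14 to 1.35 with 1 array left out. That of kappa sets, 0.66, became 1.56 with a pseudocount of 1, 0.23 with a pseudocount of 64 and 0.61 with single-symbol probe sets, and ran from 0.60 to 0.78 with 1 array left out. The medians of the lambda sets and of the 1 heavy variable set moved by less than the spread between replicates under each alternative. The 1 probe set kept per symbol was the one with the highest mean over all arrays, which can favour sets high in 1 genotype. For the heavy constant genes these sets were Ighm 1425385_a_at (6.29), Igha 1421653_a_at (3.66) and Ighg3 1427503_at (0.28). The median of 3.66 is the middle value of these and follows from that choice. The cause of the other shifts was not tested. With 1 array left out, the log2 fold change changed sign for 12 of the 33 tested immunoglobulin sets, running from -0.085 to 4.45 (Ighm 1425247_a_at), -0.12 to 4.26 (1427756_x_at), -0.21 to 4.11 (1427870_x_at), -0.22 to 4.09 (1425324_x_at), -0.15 to 0.20 (1426196_at), -1.19 to 0.074 (1427329_a_at) and -1.79 to 0.065 (1427351_s_at). They ran from -0.046 to 2.65 for Igkv6-14 (1427860_at), -0.38 to 1.38 for 1451965_at, -0.049 to 0.63 for Igkv9-120 (1452536_s_at), -0.096 to 0.55 for Igkv19-93 (1427855_at), -0.21 to 0.070 for Ighv14-2, and, outside the immunoglobulin sets, -0.24 to 0.093 for Pigr and -0.12 to 0.073 for Fcgrt. The titles number the replicates 1 and 2 in both genotypes, but nothing says that a number marks a shared litter or day. The differences between replicates were uncorrelated across all probe sets tested (r = -0.025 over 31526). Among the immunoglobulin sets alone r was -0.36. With a replicate block 8 immunoglobulin sets were higher, 7 of them among the 8, with Igkv9-120 lost (limma adjusted p = 0.0827) and Iglv1 gained. The 172 calls of the whole table became 13 with a pseudocount of 1, 521 with a pseudocount of 64, 47 with no filter, 512 with an intensity trend and robust prior, 95 with the block and 84 to 229 with 1 array left out. Over all alternatives the plasma cell list had 0 to 4 genes higher, the B cell list 0 to 2, the T cell list 0 to 6 and the Fc receptor list 0 to 3, while cardiac genes were lower in 2 to 8 and adipose genes in 0 to 3. No detection calls were used, so whether the dim probe sets exceed background is unknown.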
